A study of Homo sapiens with 30 samples.

Results

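The B cell surface antigens described here are 9 genes, MS4A1, CD22, CD37, CD40, CD72, FCGR2B, CR2, CD24 and SLAMF1, chosen by name as surface proteins of B cells, several of them targets of lymphoma therapy. They are represented by 18 of the 47231 probes of an Illumina bead array, which measures the RNA that binds each probe as a fluorescence signal. The arrays carried RNA of 2 human cell lines derived from diffuse large B cell lymphoma, TMD8 and U2932. Cells had been treated for 4 h or 8 h with YK-S or YK-R, which are read here as the mirror-image (S) and (R) forms of YK-4-279, a small molecule that inhibits ETS family transcription factors. Background knowledge holds the (S) form to be the active one.

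TMD8 has 4 groups, YK-S and YK-R at each time, and no solvent control among the arrays used here. U2932 has 6 groups, since DMSO, the solvent, was also applied for each time. Each of the 10 groups has 3 arrays, 30 in all. No dose is stated, and nothing tells whether the 3 arrays of a group are separate cultures. The p-values therefore measure only the spread between these arrays, which may be technical. U2932 is known to hold subclones told apart by their surface antigens. In RNA from a bulk culture, fewer cells that carry a transcript cannot be told apart from less of it per cell.

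The proteins have different roles on a B cell. MS4A1 encodes CD20, the target of rituximab, and CD37 and CD24 are surface proteins that are also antibody targets. CD22, CD72 and FCGR2B are inhibitory receptors: they carry tyrosine motifs that recruit the phosphatases SHP-1 or SHIP-1 and dampen signalling through the B cell receptor. CR2 (CD21) binds complement fragments, associates with CD81 on B cells and lowers the threshold for activation. CD40 receives the CD40 ligand from T cells and signals through TRAF proteins to NF-kB, and SLAMF1 (CD150) is a receptor that binds itself on neighbouring cells. The ETS factors SPI1 and SPIB, which recognise a purine-rich site around GGAA, are background regulators of many B cell genes.

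The upstream sequences are shown because the compound acts on ETS factors and the question in these data is whether these genes respond to it. RefSeq promoters (build GRCh38.p14) matched 6 of the 9 genes. The 250 bases before the most upstream listed start are printed 5' to 3' on the gene's strand for the 4 genes with the largest differences between the lines among those 6. Capitals mark each GGAA core on either strand (TTCC on the strand shown).
CD24, chr6:106975628-106975877, minus strand: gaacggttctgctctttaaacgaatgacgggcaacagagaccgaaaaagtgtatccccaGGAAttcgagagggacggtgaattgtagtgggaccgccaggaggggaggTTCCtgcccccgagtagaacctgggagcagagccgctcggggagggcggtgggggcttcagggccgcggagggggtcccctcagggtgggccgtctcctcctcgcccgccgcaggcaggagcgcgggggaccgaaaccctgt
CD72, chr9:35618414-35618663, minus strand: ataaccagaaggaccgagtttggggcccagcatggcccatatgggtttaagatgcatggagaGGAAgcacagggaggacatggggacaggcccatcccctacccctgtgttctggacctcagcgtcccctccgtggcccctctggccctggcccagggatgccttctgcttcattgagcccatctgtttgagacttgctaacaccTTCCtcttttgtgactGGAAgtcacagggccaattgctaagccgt
FCGR2B, chr1:161646993-161647242, plus strand: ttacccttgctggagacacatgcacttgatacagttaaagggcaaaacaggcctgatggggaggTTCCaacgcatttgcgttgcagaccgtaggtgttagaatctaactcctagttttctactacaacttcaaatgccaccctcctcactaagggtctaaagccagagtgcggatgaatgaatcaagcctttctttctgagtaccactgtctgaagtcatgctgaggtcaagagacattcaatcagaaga
SLAMF1, chr1:160647045-160647294, minus strand: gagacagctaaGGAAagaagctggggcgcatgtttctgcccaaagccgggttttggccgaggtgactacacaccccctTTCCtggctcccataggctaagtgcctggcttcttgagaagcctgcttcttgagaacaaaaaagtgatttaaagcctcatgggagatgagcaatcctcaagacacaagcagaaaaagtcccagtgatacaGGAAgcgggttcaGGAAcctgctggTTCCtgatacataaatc
The CD24, CD72, FCGR2B and SLAMF1 windows held 2, 3, 1 and 5 cores. GGAA or its complement occurred in 92.7% of all 35114 upstream windows of this length, with a median of 3 cores, so most genes hold it. The longer GAGGAA, the core of the site that SPI1 and SPIB bind, contains GGAA and was searched on both strands. It occurred in 23.6% of all windows. The CD72 window held it at 2 places, whose first base on the printed strand lay 190 and 45 bases before the start. The other 3 printed windows held none, and the second listed FCGR2B start (chr1:161662893-161663142) held 2. A match describes these letters only and is not a binding site.

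Signals were corrected for background, quantile normalised over the 30 arrays and put on the log2 scale, so that a difference of 1 is a doubling. A probe counted as detected on an array when its signal exceeded the array's background at p under 0.05, and it was kept for a fit when all arrays of at least 1 group detected it. A difference was called when its p from limma, a linear model with a spread shared across probes, was under 0.05 after Benjamini-Hochberg adjustment over all kept probes. The comparison of lines kept 17 of the 18 probes, the fit of TMD8 kept 14 and the fit of U2932 kept 14. CR2 probe ILMN_1727753 was detected on none of the 30 arrays.

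The U2932 arrays were weaker and their names conflict. Mean raw signal was 419.6 to 494.1 on the TMD8 arrays, with 46.6% to 56.1% of probes detected, and 85.4 to 340.9 on the U2932 arrays, with 25.2% to 50.5% detected. The 8 U2932 arrays with a mean under 200 were called dim. A second deposited table holds log2 values of the same arrays, matched here by rank correlation (at least 0.99996). Both tables name 12 of 12 TMD8 arrays alike. For U2932 they name 0 of 18 arrays alike, and 13 of the 18 fall into another group. The names of the signal table were used first, by which the dim arrays were 3 of DMSO, 3 of YK-R and 1 of YK-S at 4 h and 1 of YK-S at 8 h. By the other names each group had 2 at 4 h, and YK-R and YK-S had 1 each at 8 h. The main results within U2932 are therefore given under both names, and neither set was shown to be right. The lines themselves are named alike in both tables.

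**Figure D1:**
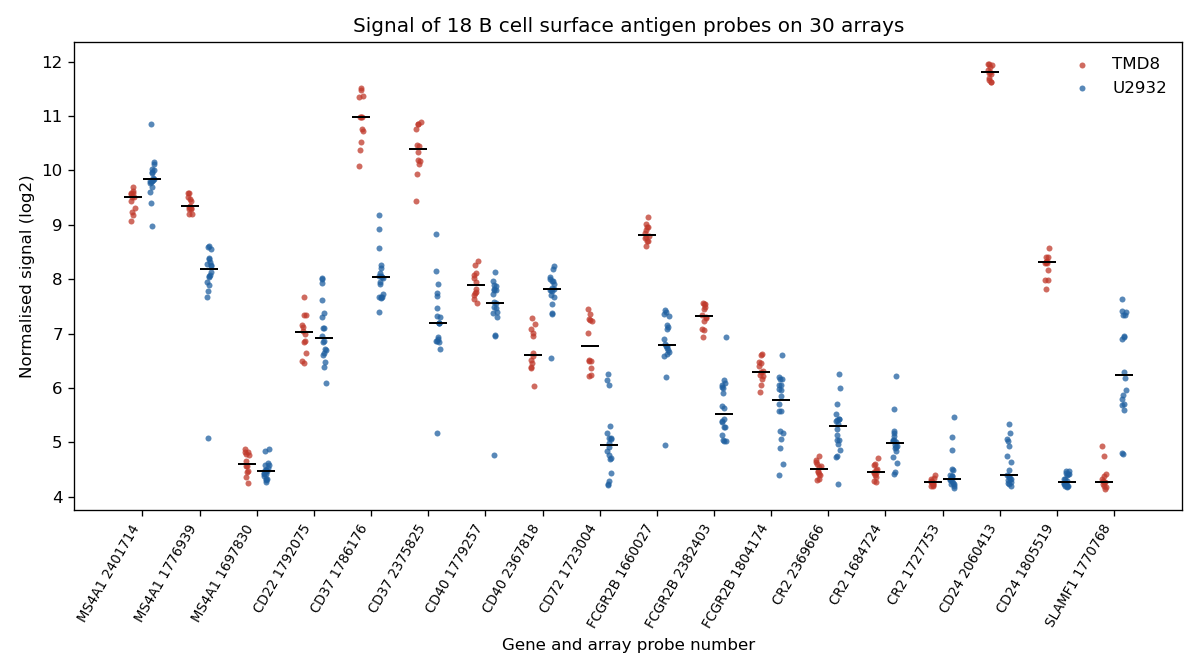
Normalised signal (log2) of each of the 18 probes on every array, TMD8 in red and U2932 in blue, with a black bar at the median of each line. The arrays of the lines do not overlap for the 2 CD24 and the 2 CD37 probes, nor for FCGR2B ILMN_1660027 and ILMN_2382403 and MS4A1 ILMN_1776939. For FCGR2B ILMN_2382403 the lines nearly touch, at 6.9402 (lowest TMD8 array) and 6.9374 (highest U2932 array). The share of all probes without overlap is not given, and 52.4% of all probes were called between the lines.

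The lines were compared as TMD8 minus U2932, averaged over YK-S and YK-R at 4 h and 8 h, which uses 12 arrays of each line. Of the 25382 probes tested, 52.4% were called, 29.5% higher in TMD8 and 22.9% lower. Against that background 14 of the 17 member probes were called, 9 higher and 5 lower. The CD24 probes passed the detection filter through TMD8 alone, and the CR2 and SLAMF1 probes through U2932 alone. The filter itself favoured a difference for these probes, so their calls and p-values are given as a description. CD24 and CD37, CD72 and FCGR2B were higher in TMD8, CR2 and SLAMF1 were lower, MS4A1 and CD40 gave probes that disagreed, and CD22 was not called.

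CD24 (chr6:106969831-106976855), a small glycosylated protein anchored in the membrane by a lipid, gave the largest difference among the members. Probe ILMN_2060413 read 11.62, 11.80 and 11.96 (lowest, median and highest) on the 12 TMD8 arrays and 4.21, 4.40 and 5.33 on the 18 U2932 arrays. It was detected on 12 of 12 TMD8 arrays and 4 of 18 U2932 arrays. The log2 difference was 7.16 (SE 0.12, 95% interval 6.92 to 7.41, adjusted p = 3.51e-25). Set against the level at which the U2932 arrays could detect a probe, TMD8 was at least 104-fold higher. The second probe, ILMN_1805519, read 7.82 to 8.57 in TMD8 and 4.17 to 4.48 in U2932, where it was detected on none of 18 arrays. Its log2 difference was 3.93 (SE 0.08, adjusted p = 6.53e-23), at least 9.30-fold. CD24 has near-identical pseudogene copies in the genome, so a probe may also bind their RNA.

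CD37 (chr19:49335406-49340606), a tetraspanin that organises other membrane proteins into clusters, was higher in TMD8 by both probes. ILMN_1786176 read 10.08, 10.98 and 11.51 (lowest, median, highest) in TMD8 and 7.39, 8.03 and 9.19 in U2932, a log2 difference of 2.81 (SE 0.18, adjusted p = 1.31e-12). ILMN_2375825 read 9.43, 10.39 and 10.89 in TMD8 and 5.18, 7.20 and 8.83 in U2932, a difference of 3.05 (SE 0.27, adjusted p = 3.79e-10). By both probes the lowest TMD8 array stood above the highest U2932 array. Within TMD8 the first probe had an SD of 0.45, and its 4 highest arrays, 11.35, 11.51, 11.36 and 11.47, were the first listed array of each of the 4 groups. The second probe was highest on the same arrays.

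Among the inhibitory receptors, CD72 and FCGR2B were higher in TMD8 and CD22 was not called. CD72 (chr9:35609982-35646857), a C-type lectin-like receptor, read 6.23, 6.77 and 7.45 in TMD8 and 4.22, 4.96 and 6.26 in U2932. The log2 difference was 1.81 (SE 0.21, adjusted p = 5.86e-08), or at least 2.78-fold against the detection level, since 6 of the 12 U2932 arrays compared detected it. The ranges overlapped by a single U2932 array at 6.26.

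FCGR2B (chr1:161647243-161678654), the only inhibitory Fc receptor for IgG, was called by each of 3 probes. ILMN_1660027 read 8.60, 8.82 and 9.14 in TMD8 and 4.96, 6.79 and 7.43 in U2932 (log2 difference 1.92, SE 0.15, adjusted p = 6.42e-11). ILMN_2382403 differed by 1.69 (SE 0.13) and ILMN_1804174 by 0.72 (SE 0.18, adjusted p = 0.00158), the last with overlapping ranges of 5.92 to 6.62 and 4.39 to 6.60. FCGR2A and FCGR2C are near-identical to FCGR2B over long stretches, so these probes may also report the paralogs. The FCGR2A probe itself was higher in TMD8 by 0.98 (SE 0.22, adjusted p = 0.000591).

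CD22 (chr19:35329187-35347361), a lectin for sialic acid and the target of antibody-drug conjugates, read 6.46, 7.02 and 7.68 in TMD8 and 6.10, 6.91 and 8.02 in U2932. The difference was 0.05 (SE 0.20, 95% interval -0.36 to 0.47, adjusted p = 0.848), and the ranges of the lines overlapped.

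CR2 and SLAMF1 were the genes lower in TMD8. CR2 (chr1:207454328-207489892) was near the detection level in both lines. ILMN_2369666 was detected on 5 of 12 TMD8 and 15 of 18 U2932 arrays and read 4.31 to 4.74 against 4.24 to 6.26, a difference of -0.75 (SE 0.17, adjusted p = 0.000667). ILMN_1684724 was detected on 4 and 12 arrays and differed by -0.60 (SE 0.14, adjusted p = 0.000998). Set against the level at which the TMD8 arrays could detect a probe, the U2932 means were 1.59-fold and 1.41-fold higher. These are not lower bounds, since only 10 and 8 of the 12 U2932 arrays compared detected the probes.

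SLAMF1 (chr1:160608106-160647044) was detected on 2 of 12 TMD8 arrays, where it read 4.14, 4.28 and 4.93, and on 16 of 18 U2932 arrays, where it read 4.79, 6.23 and 7.63. The log2 difference was -2.20 (SE 0.19, adjusted p = 3.54e-10), at least 3.93-fold. The ranges met only where 2 U2932 arrays, at 4.79 and 4.81, lay below the highest TMD8 array. SLAMF1 also had the highest SD of the 18 probes within U2932, 0.90 over 18 arrays.

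For MS4A1 (chr11:60455847-60470752) the probes disagreed. ILMN_2401714 read 9.07, 9.51 and 9.70 in TMD8 and 8.98, 9.84 and 10.85 in U2932, a difference of -0.51 (SE 0.12, adjusted p = 0.000889). ILMN_1776939 read 9.19, 9.34 and 9.59 in TMD8 and 5.07, 8.19 and 8.61 in U2932, a difference of 1.13 (SE 0.21, adjusted p = 5.14e-05) with no overlap. The third, ILMN_1697830, was detected on 8 of 12 TMD8 and 0 of 18 U2932 arrays and differed by 0.08 (SE 0.09, adjusted p = 0.495). The array's annotation ties the first probe to transcript NM_021950 and the other two to NM_152866, and no direction for the gene follows from them.

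CD40 (chr20:46118314-46129858) also gave probes that disagreed. ILMN_1779257, annotated to NM_001250, read 7.56, 7.89 and 8.33 in TMD8 and 4.77, 7.57 and 8.13 in U2932, a difference of 0.32 (SE 0.24, adjusted p = 0.266). ILMN_2367818, annotated to NM_152854, read 6.04, 6.61 and 7.28 in TMD8 and 6.55, 7.81 and 8.24 in U2932, a difference of -1.15 (SE 0.15, adjusted p = 2.62e-07).

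Some of these directions turned with the scaling. When arrays were scaled to a common median in place of quantile normalisation, the median of all probes moved to a difference of 0.67. MS4A1 ILMN_2401714 went to 0.93 and CD40 ILMN_2367818 to 0.28, and CD40 ILMN_1779257 (1.78) and CD22 (1.33) were then called as higher in TMD8. CD24, CD37, CD72, FCGR2B, CR2 and SLAMF1 kept their direction and call under that scaling and under every other alternative run for this comparison, the names of the value table and the leaving out of each array included. Without background correction their sizes fell: CD24 to 5.22 and 2.08 (ILMN_1805519 the second), CD72 to 0.82, CR2 ILMN_2369666 to -0.25 and SLAMF1 to -0.95. These are smaller than the sizes set against the detection level above, which hold only for background-corrected signals. With U2932 arrays named as in the value table, 15 of 17 probes were called, against 13954 of all 24991 probes. CD24 ILMN_2060413 was then at 7.27 and SLAMF1 at -1.95. Leaving out the dim arrays under those names leaves 1 array in each U2932 group at 4 h. CD24 ILMN_2060413 then differed by 7.09, CD37 ILMN_2375825 by 3.08, CD72 by 1.34, FCGR2B ILMN_1660027 by 1.85 and SLAMF1 by -2.34.

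**Figure D2:**
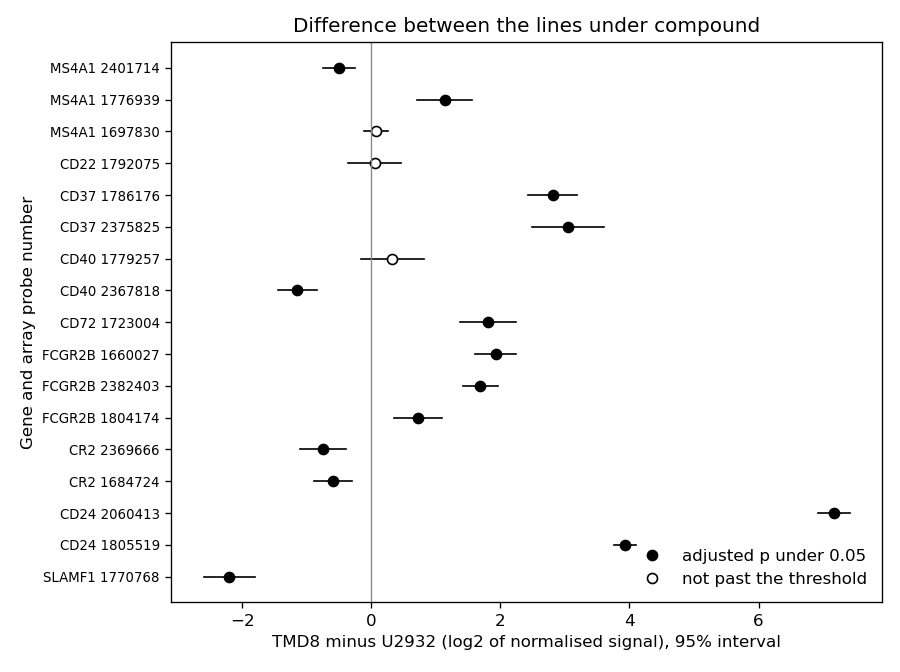
Difference TMD8 minus U2932 (log2) of the 17 kept probes with its 95% interval, filled where called and open where not. CD24 and CD37 lie farthest to the right, SLAMF1 at -2.20 farthest to the left, and the probes of MS4A1 and of CD40 fall on both sides of 0.

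The genes around these antigens were compared by 1 probe each, the brightest kept one, for which 58.5% of 13124 named genes were called between the lines. Of the Fc receptor and Fc receptor-like list, 7 of 11 genes were measured, and 6 were higher in TMD8 and 1 lower. FCRL3, an Fc receptor-like protein of B cells, was higher by 3.70 (SE 0.20) and FCRLA lower at -1.23 (SE 0.10). Of 10 measured inhibitory receptors of other families, 5 were higher and 1 lower: SIGLEC10, a relative of CD22, differed by 6.46 (SE 0.11) and was detected on 12 of 12 TMD8 and only 5 of 18 U2932 arrays, so that its size is taken against a level near background, and LAIR1, a collagen receptor, by -0.32 (SE 0.07).

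The proteins that carry the signal of the inhibitory receptors and of the B cell receptor gave 6 higher, 2 lower and 6 not called of 14 measured. PTPN6, which encodes SHP-1, was higher in TMD8 by 3.28 (SE 0.24, adjusted p = 1.15e-11), reading 9.62 ± 0.32 (SD, n = 12) against 6.32 ± 0.77 (SD, n = 18). INPP5D, which encodes SHIP-1, was higher by 0.93 (SE 0.20). BLK, a SRC family kinase, was lower at -1.08 (SE 0.17). Of the B cell receptor complex and its partners, 4 genes were measured: IFITM1 was higher by 2.23 (SE 0.23), and CD81, a tetraspanin that associates with CR2, was lower at -1.36 (SE 0.11), as were CD79A (-0.48) and CD79B (-0.66).

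In the CD40 pathway 5 of 8 measured genes were higher and 1 lower, with MAP3K14, the kinase of the alternative NF-kB route, at 1.22 (SE 0.18) and BIRC2, which marks that kinase for degradation, at -1.16 (SE 0.14). The SLAM family gave 2 higher and 2 lower of 5, with SLAMF6 at -2.66 (SE 0.15) beside SLAMF1 and SLAMF7 at 0.69 (SE 0.16). Of the tetraspanins and MS4A relatives, 5 of 8 were higher and 1 lower, with MS4A6A at 3.87 (SE 0.12), detected on 5 of 18 U2932 arrays, and CD9 at -2.86 (SE 0.22). TNF receptors of B cells gave 0 higher and 3 lower of 4, with CD27 at -4.49 (SE 0.09). CD27 was detected on 4 of 12 TMD8 arrays, so this size too is taken against a level near background.

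Complement receptors and regulators gave 1 higher (CD55, 0.78) and 1 lower (CD59, -0.98) of 4. Both measured ligand genes were lower: SEMA4D, which encodes a ligand of CD72, at -2.05 (SE 0.09) and ST6GAL1, the enzyme that makes the sialic acid linkage CD22 binds, at -1.51 (SE 0.08). Of 20 other surface antigens and activation markers, 12 were higher, led by CCR7 at 3.34 (SE 0.22), and 6 lower, led by CD52, the target of alemtuzumab, at -5.09 (SE 0.11). The median differences of the lists ran from -2.15 for the TNF receptors to 1.08 for the Fc receptors, against 0.05 over all probes tested.

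Markers of other cell types were examined in the same fit. Of the B cell markers 4 were measured: CD74, CD79A and CD79B were detected on every array, and PAX5 on 8 of 12 TMD8 and 0 of 18 U2932 arrays. Of 9 T and NK cell markers 3 were kept, none of CD3D, CD3E and CD3G among them, and the summed linear signal of the 3 was 66.3 to 90.8 in TMD8 and 136 to 386 in U2932, where CD247 was higher (difference -3.16). Of 7 myeloid markers 3 were kept, with sums of 86.6 to 118 and 71.6 to 210, CD14 higher in U2932 (-1.12) and FCGR3A higher in TMD8 (0.56). Of 8 stromal and epithelial markers 3 were kept, with sums of 77.5 to 96.7 and 460 to 1040, set by EPCAM, which was higher in U2932 (-4.94). The other two, COL1A1 (0.38) and PECAM1 (0.39), were higher in TMD8. The part of these genes in the differences of the antigens was not tested.

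In TMD8 the forms of the compound were compared directly, YK-S minus YK-R, and no antigen probe was called. At 4 h limma called 0 of 14 member probes against a background of 0% of 23702 probes, and at 8 h 0 of 14 against 0.0548%. At an unadjusted p under 0.05 the member count was also 0 at each time. A fit of all 30 arrays, which kept 17 member probes, also called 0 of them. The 95% intervals reached 0.38 to either side at the median probe and 0.73 at the widest.

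The largest differences between the forms at 4 h were for MS4A1 and FCGR2B. MS4A1 ILMN_2401714 read 9.07, 9.58 and 9.23 with YK-S and 9.59, 9.70 and 9.51 with YK-R, a log2 difference of -0.30 (SE 0.16, 95% interval -0.64 to 0.03). FCGR2B ILMN_2382403 read 7.35, 6.94 and 7.07 with YK-S and 7.44, 7.49 and 7.29 with YK-R, a difference of -0.29 (SE 0.16, interval -0.63 to 0.05). In both the groups overlapped, and the other probes of these genes did not share the difference: MS4A1 ILMN_1776939 and FCGR2B ILMN_1660027 differed by less than 0.01.

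At 8 h the largest difference was for CD37 ILMN_1786176, which read 11.36, 10.08 and 10.98 with YK-S and 11.47, 10.98 and 10.98 with YK-R, a difference of -0.34 (SE 0.33, interval -1.04 to 0.37). A single YK-S array at 10.08 set it. CD24 ILMN_2060413 had the tightest values: 11.94, 11.95 and 11.79 with YK-S and 11.96, 11.90 and 11.77 with YK-R. Its difference of 0.02 had an interval of -0.24 to 0.27, the narrowest among the members. CD22 differed by -0.21 (interval -0.80 to 0.37) and CD72 by -0.12 (interval -0.86 to 0.61).

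**Figure D3:**
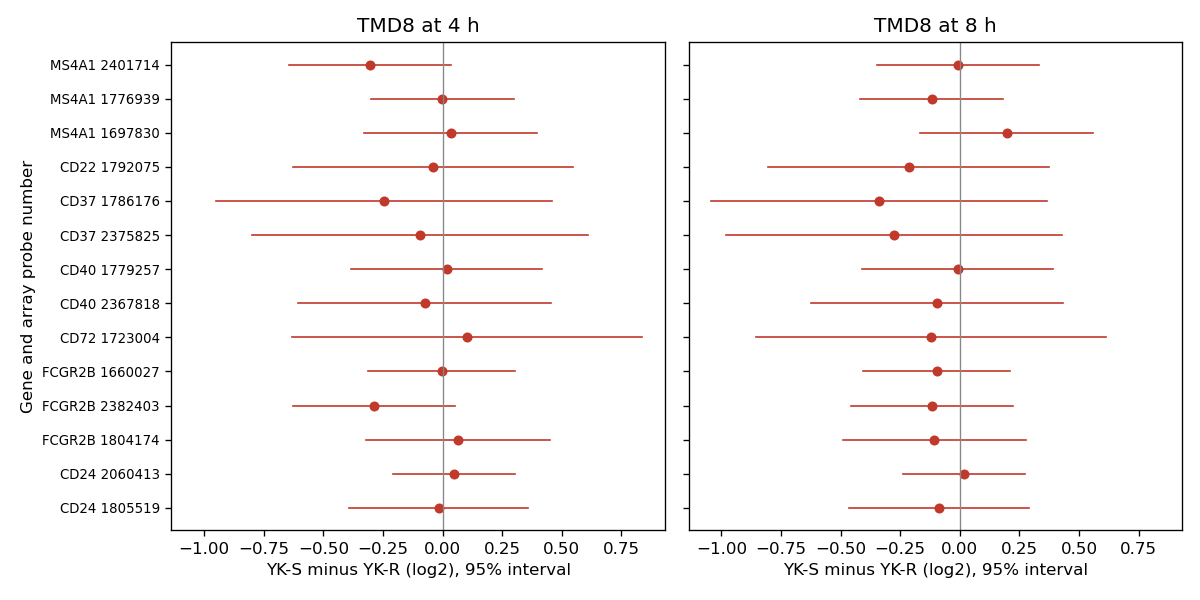
Difference YK-S minus YK-R (log2) in TMD8 at 4 h (left) and 8 h (right) for the 14 probes kept in this line, with 95% intervals. Every interval crosses 0, and the points lie between -0.34 and 0.20.

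Over time in TMD8, 8 h minus 4 h, 0 of 14 probes were called with YK-S (background 0.0464%) and 0 of 14 with YK-R (background 0.11%), and 0 at an unadjusted p under 0.05 in either. With YK-S 12 of the 14 values lay above 0 and with YK-R 13 of 14, with medians of 0.14 and 0.18 against -0.01 and -0.03 over all probes. The share of all probes above 0 is not given, and several of the 14 probes report the same gene on the same arrays. These counts are therefore not read as a rise of the antigens. The largest of the 14 values was that of CD40 ILMN_2367818 with each form. It read 6.52, 6.37 and 6.47 at 4 h and 7.18, 7.08 and 6.38 at 8 h with YK-S (0.43, interval -0.10 to 0.96). With YK-R it read 6.95, 6.59 and 6.04 at 4 h and 7.28, 7.0 and 6.64 at 8 h (0.45, interval -0.08 to 0.98). The other CD40 probe differed by 0.24 and 0.27. No gene of the lists around the antigens, 80 measured in TMD8, was called in any of the 4 TMD8 comparisons.

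In U2932 the compounds could be set against DMSO. At 4 h, with the signal table's names, limma called 0 of 14 member probes for YK-S minus DMSO (background 0%), 0 of 14 for YK-R minus DMSO (background 2.65%) and 0 of 14 for YK-S minus YK-R (background 0%). The member counts at an unadjusted p under 0.05 were 3, 4 and 0, against 3832, 5329 and 895 of all 20800 probes. The 95% intervals reached 0.91 to either side at the median probe and 1.28 at the widest. The comparisons with DMSO share the same 3 DMSO arrays.

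SLAMF1 had the largest values. It read 6.90, 4.81 and 4.79 with DMSO, 7.40, 7.42 and 7.63 with YK-S and 6.95, 6.94 and 7.34 with YK-R at 4 h. Both compound groups lay above every DMSO array, and 2 of the DMSO arrays lay far below the third. The probe was detected on 1 of the 3 DMSO arrays, so the differences rest in part on values not above background. The log2 difference was 1.98 for YK-S (SE 0.47, 95% interval 0.99 to 2.97, adjusted p = 0.0828) and 1.58 for YK-R (SE 0.47, interval 0.59 to 2.57, adjusted p = 0.0740). In a fit of all 30 arrays, whose shared spread is lowered by TMD8, the same differences were called (adjusted p = 0.00515 and 0.0101), against backgrounds of 6.81% and 15.8%.

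Values for FCGR2B and MS4A1 were smaller. FCGR2B ILMN_1660027 read 6.90, 4.96 and 6.77 with DMSO, 7.33, 7.36 and 7.43 with YK-S and 7.08, 7.17 and 7.12 with YK-R, with differences of 1.16 (adjusted p = 0.145) and 0.91 (adjusted p = 0.154). MS4A1 ILMN_1776939 read 7.67, 5.07 and 8.04 with DMSO, 8.25, 7.94 and 7.79 with YK-S and 8.05, 8.31 and 8.56 with YK-R, with differences of 1.07 and 1.38 (adjusted p = 0.279 and 0.129). In the fit of all 30 arrays FCGR2B was called for each form and MS4A1 for YK-R.

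A single dim array, the second listed for DMSO, was lowest in U2932 for FCGR2B ILMN_1660027, MS4A1 ILMN_1776939, CD37 ILMN_2375825 (5.18) and CD40 ILMN_1779257 (4.77). It was also lowest for CD37 ILMN_1786176 (7.39), CD40 ILMN_2367818 (6.55) and CR2 ILMN_1684724 (4.42), but not for the other FCGR2B and MS4A1 probes kept in U2932. Without it the differences for YK-S and YK-R were 0.54 and 0.29 for FCGR2B ILMN_1660027, 0.14 and 0.45 for MS4A1 ILMN_1776939 and 1.64 and 1.24 for SLAMF1, none called. Without the first DMSO array SLAMF1 was called at 2.69 (adjusted p = 0.000714) and 2.28 (adjusted p = 0.00135), and FCGR2B ILMN_1660027 for YK-S at 1.51 (adjusted p = 0.0271) and CD40 ILMN_2367818 for YK-R at 1.04 (adjusted p = 0.033). Without the third, SLAMF1 was called for YK-S at 1.63 (adjusted p = 0.0397) and stood at 1.22 for YK-R (adjusted p = 0.0691). FCGR2B ILMN_1660027 was then called at 1.44 and 1.2 and MS4A1 ILMN_1776939 at 1.62 and 1.94. No share of all probes called is set beside these fits, so their calls are not read as a result about the antigens. All 3 DMSO and all 3 YK-R arrays of this comparison were dim, and the part of the weak signal in it was not tested.

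The value table's names gave other values at 4 h. SLAMF1 read 7.42, 6.90 and 6.95 with DMSO, 7.63, 6.94 and 7.34 with YK-S and 7.34, 4.81 and 7.40 with YK-R. DMSO and YK-S overlapped (difference 0.21, SE 0.53), and YK-R differed from DMSO by -0.58 through 1 array. FCGR2B ILMN_1660027 differed from DMSO by 0.12 with YK-S and by -0.55 with YK-R, and MS4A1 ILMN_1776939 by 0.33 and -0.81, so that the YK-R direction of both turned. CD37 ILMN_2375825 read 8.83, 8.16 and 7.91 with DMSO, 7.74, 7.20 and 7.19 with YK-S and 7.33, 5.18 and 6.71 with YK-R, so that DMSO lay above each compound group. Its differences were -0.92 (SE 0.42, adjusted p = 0.550) and -1.90 (SE 0.42, adjusted p = 0.0723), where the signal table's names had given 0.75 and 0.42.

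With these names limma called 0 of 13 member probes for YK-S minus DMSO, YK-R minus DMSO and YK-S minus YK-R at 4 h, each against a background of 0% of 19439 probes. The counts at an unadjusted p under 0.05 were 2, 3 and 3, against 1716, 3552 and 2291 of all 19439 probes. No antigen was thus called against DMSO at 4 h under either set of names in the fits of U2932 alone.

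**Figure D4:**
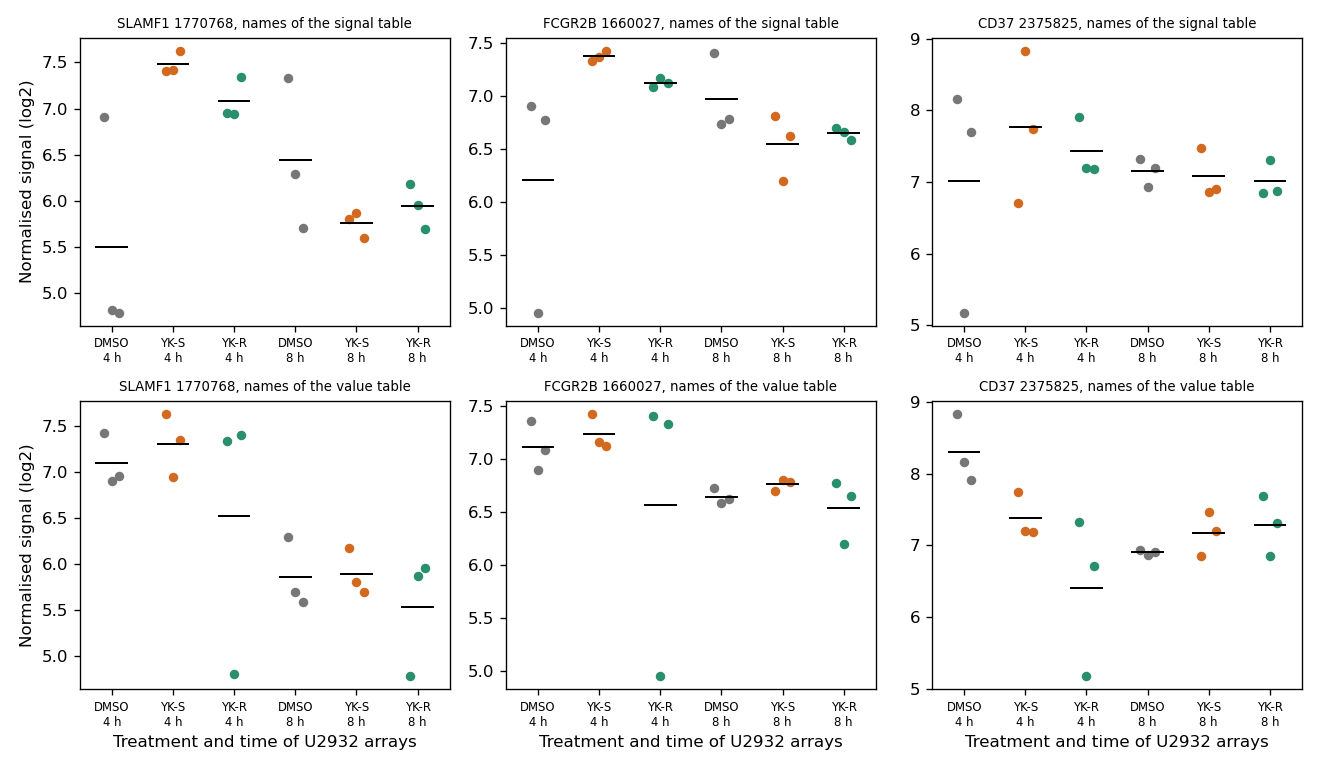
Normalised signal (log2) of SLAMF1, FCGR2B ILMN_1660027 and CD37 ILMN_2375825 on the 18 U2932 arrays by treatment and time, with arrays named as in the signal table (top) and as in the value table (bottom); bars are group means and each column of panels shares its axis. The same 18 values are shown in each row, and the low DMSO arrays of the top row at 4 h, 4.79 and 4.81 for SLAMF1, lie in the YK-R groups of the bottom row.

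At 8 h no antigen was called in U2932. With the signal table's names 0 of 14 probes were called for YK-S minus DMSO, YK-R minus DMSO and YK-S minus YK-R (background 0% each), with 0 at an unadjusted p under 0.05. The member values ran from -0.80 to 0.44, from -0.50 to 0.08 and from -0.73 to 0.48. SLAMF1 read 7.34, 6.29 and 5.70 with DMSO, 5.80, 5.87 and 5.59 with YK-S and 6.18, 5.96 and 5.69 with YK-R, and the groups overlapped. As the value table names the arrays, the counts were 0 of 13 (background 0% each). At an unadjusted p under 0.05 they were 0, 0 and 1, against 140, 183 and 358 of all 19439 probes. SLAMF1 then differed from DMSO by 0.03 with YK-S and -0.32 with YK-R.

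Over time, 8 h minus 4 h, SLAMF1 and FCGR2B had values below 0 with both compounds under both sets of names. As the signal table names the arrays, 0 of 14 probes were called with DMSO (background 0.0817%), with YK-S (background 0%) and with YK-R (background 0%). An unadjusted p under 0.05 was found for 1, 4 and 1 of them, against 3217, 2302 and 2717 of all 20800 probes. Without the first DMSO array at 4 h SLAMF1 was called with DMSO at 1.65 (adjusted p = 0.012). That fit too has no share of all probes beside it. With all arrays SLAMF1 differed by 0.94 with DMSO, -1.73 with YK-S (adjusted p = 0.204) and -1.14 with YK-R (adjusted p = 0.316). In each compound group the highest 8 h array lay below the lowest 4 h array. FCGR2B ILMN_2382403 differed by -1.14 with YK-S (adjusted p = 0.218), from 6.94, 6.03 and 6.05 to 5.14, 5.05 and 5.42, and CD72 by -1.18 (adjusted p = 0.312). With arrays named as in the value table, that FCGR2B probe differed by -0.49 with YK-S (adjusted p = 0.579). The fit of all 30 arrays called SLAMF1 and FCGR2B ILMN_2382403 with YK-S, against a background of 1.49%.

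Under the value table's names 0 of 13 probes were called with DMSO (background 0.159%), with YK-S (background 1.29%) and with YK-R (background 2.92%). An unadjusted p under 0.05 was found for 4, 2 and 1 of them, against 1978, 2979 and 4377 of all 19439 probes. SLAMF1 differed by -1.23 with DMSO (SE 0.53), -1.41 with YK-S and -0.98 with YK-R. With DMSO and with YK-S every 8 h array, 5.59 to 6.29, lay below every 4 h array, 6.90 to 7.63. With DMSO the CD37 probes differed by -1.01 and -1.40 and CD22 by -1.04, none past the threshold. Without the dim arrays, which leaves 1 array in each 4 h group, SLAMF1 differed by -1.56 with DMSO, -1.69 with YK-S and -1.42 with YK-R.

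Genes of the surrounding lists were called within U2932 in few comparisons. Under the signal table's names 1 of 76 measured was called in 1 comparison: SIGLEC9, a relative of CD22, at -2.01 for YK-R minus DMSO at 4 h (SE 0.51, adjusted p = 0.0462), where 2.65% of all probes were called. Under the names in the value table, 1 of 75 was called over time with DMSO, 5 with YK-S and 5 with YK-R, all lower at 8 h, against 0.159%, 1.29% and 2.92% of all probes. CXCR5, the receptor that guides B cells into follicles, was among them each time (-1.12, -0.78 and -0.77). CD83 (-0.87 and -0.81), CD86 (-0.89 and -0.99), both activation antigens, and SLAMF6 (-1.20 and -0.96) were lower with each compound, CD53 with YK-S (-0.77) and CD48, another SLAM family member, with YK-R (-0.78). The differences with the separate treatments were not tested against each other.

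Whether the forms of the compound acted differently in the lines was tested as YK-S minus YK-R in TMD8 minus the same in U2932. By the signal table's names limma called 0 of 17 member probes at 4 h and 0 of 17 at 8 h, against a background of 0% of 25382 probes each. At an unadjusted p under 0.05 there were 1 and 0, against 803 and 421 of all probes. The lowest unadjusted p was that of FCGR2B ILMN_2382403 at 4 h (difference -0.87, 95% interval -1.65 to -0.09, adjusted p = 1.0). At 8 h the largest was CD37 ILMN_1786176 at -0.82 (interval -1.89 to 0.26). By the value table's names 0 of 17 were called at each time, among 0 of all 24991 probes, with 0 at an unadjusted p under 0.05. FCGR2B ILMN_2382403 then stood at 0.19 at 4 h (interval -0.68 to 1.05), so that its direction turned. CD37 ILMN_1786176 stood at -0.64 at 8 h (interval -1.60 to 0.33).

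The antigens' patterns over the 30 arrays, each array taken relative to its line's mean, are given as a description, since arrays share their depth and background. Pearson's r of the brightest probes was 0.80 between CD40 and FCGR2B over 30 arrays, 0.87 over the 18 of U2932 and -0.23 over the 12 of TMD8. For FCGR2B and SLAMF1 it was 0.75, 0.78 and -0.07. A single dim U2932 array, the second listed for DMSO at 4 h, read 4.77 for CD40 and 4.96 for FCGR2B. The next lowest U2932 arrays read 6.95 and 6.20. No r is given here without that array, so its part in the values over 30 arrays and in U2932 was not tested. CD22 and CD37 were alike in both lines (0.57 over all, 0.50 in U2932 and 0.80 in TMD8). In TMD8 both genes were highest on the first listed array of each of the 4 groups, CD22 at 7.16, 7.34, 7.35 and 7.68. The part of this listing order in the r of 0.80 was not tested. In TMD8 CD40 was most alike to CD24 (0.88) and CD72 (0.87). Of all named genes, those with the pattern most like SLAMF1 were RUNX2 (0.92) and WWP2 (0.91), with -0.28 and -0.05 in TMD8 alone. For CD22 they were RELB (0.84, and 0.72 in TMD8 alone) and SERPINA9 (0.83 and 0.82), and for CD37 SLC35B2 (0.85 and 0.86) and TLR9 (0.83 and 0.82). For CD40 they were DRAM2 (0.94 and 0.31) and BMP2K (0.92 and 0.25), for FCGR2B MLLT11 (0.92 and 0.54) and RPL28 (0.91 and 0.01), and for CD72 OXCT2 (0.80 and 0.73) and DCN (0.80 and 0.48). For CD24 they were SLC18B1 (0.87 and 0.35) and ADTRP (0.84 and 0.42), for MS4A1 MTDH (0.82 and 0.69) and SEPTIN7 (0.79 and 0.62), and for CR2 DNAJC21 (0.72 and 0.04) and NEUROG2 (0.71 and 0.23).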

How the data were processed

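Total RNA of 30 samples of 2 lymphoma cell lines was extracted with an RNeasy kit and labelled as biotin cRNA, per the labels' protocols, and measured on Illumina bead arrays. The authors deposited bead summary intensities, one signal per probe and array, read with GenomeStudio per the submitters' processing notes. They also deposited a table of log2 values, for which the normalization is not given in the sources used here; in its values the columns of each line share one distribution. Detection p-values and control probes were not used here, so the background of each array was taken from the mode of its signals and the spread below it, and removed by the normexp method with an offset of 16. Intensities were then quantile normalized over 30 arrays and log2 transformed. Probe names came from the platform annotation, updated through RefSeq: 30113 probes had 1 symbol, 8 had several and 17110 none.

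Within-line comparisons were fitted with limma 3.58.1 in R 4.3.3 on the arrays of that line, because the spread differed between the lines, and the comparison of lines and the interactions on all 30 arrays, with no covariate. The study's own tests are not given in the sources used here. In all, 16 comparisons were made. Replicates were numbered in accession order, and the fits did not pair arrays by that number. Whether arrays of the same number share a culture or day is not stated, so any spread they share stays in the error. The procedure was tested on simulated data. Precision is limited by 3 arrays per group.

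The members and the lists of surrounding genes were chosen with earlier results of these data known. Every member is named with all its probes. Of the lists, every called gene is named in treatment and time comparisons, and between lines the called gene with the largest difference each way, besides list genes tied to a member, which were chosen after their values were seen (FCGR2A, INPP5D, CD79A, CD79B, CD247, CD14, COL1A1). For likeness of pattern the 2 named genes with the highest r are given. Alternatives changed the background correction, scaling, filter, probe per gene, array weights, set of arrays and names, and used the deposited log2 values.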

Additional observations from a re-analysis of the deposited data

How the results depend on the processing

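Each of the 16 comparisons was repeated under the alternatives. In TMD8 the number of member probes called was 0 under all of them, and so it was for the 8 h comparisons of treatments in U2932 and the 2 interactions. Between the lines 14 of 17 probes were called without any single array, and 7 of 9 genes with the brightest probe per gene. Median scaling turned MS4A1 ILMN_2401714 to 0.93 and CD40 ILMN_2367818 to 0.28.

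Within U2932 the counts of 0 depended on the setting. The fit of all 30 arrays called 6.81% and 15.8% of all probes for YK-S and YK-R minus DMSO at 4 h. It called 1.49% for 8 h minus 4 h with YK-S. For the other settings no share of all probes is set beside the counts, so they are not read as a result about the antigens. For YK-S minus DMSO at 4 h the fit of all 30 arrays called 2, and leaving out 1 array gave 0 to 3. For YK-R minus DMSO at 4 h the fit of all 30 arrays called 3, the deposited log2 values 1 and the value table's names in a fit of all 30 arrays 1. Leaving out 1 array gave 0 to 2. There CD37 ILMN_2375825 reversed to -0.99 by the deposited log2 values and to -1.90 by the value table's names in a fit of all 30 arrays. By those names without dim arrays 1 array is set against 1, and ILMN_2375825 differed by -1.50 and ILMN_1786176 by -1.23. For YK-S minus YK-R at 4 h array weights called 1. For 8 h minus 4 h with DMSO median scaling called 4, the deposited log2 values 1 and the value table's names without dim arrays 6, and leaving out 1 array gave 0 to 1. There CD37 ILMN_2375825 reversed to -0.86 by the deposited values. By the value table's names without dim arrays, with 1 array at 4 h, it differed by -1.93, CD72 by -1.45 and SLAMF1 by -1.56. With YK-S the fit of all 30 arrays called 2 and array weights 10. With YK-R median scaling called 3 and array weights 1, with MS4A1 ILMN_1776939 at 1.83 and CD40 ILMN_2367818 at 1.61 under median scaling. Median scaling moved the median of all probes by up to 1.19 on the log2 scale. Array weights stopped before their convergence tolerance in some fits, so their counts are uncertain. The cause of these changes was not tested.

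The value table's names without dim arrays, and in a fit of all 30 arrays, were added after seeing the data; without dim arrays the lone 4 h array of a group is assumed to vary like the others. By the signal table's names no DMSO or YK-R array at 4 h is left without dim arrays, so those comparisons have no such value. No paired analysis was made, because the labels carry no replicate numbers. A fit blocked by the listing order of the arrays was not run. Weak signal limits U2932: 8 of its 18 arrays are dim.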
